A study of Mus musculus with 12 samples.

Results

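The 81 genes described here encode nuclear subunits of the mitochondrial respiratory chain and ATP synthase. They were chosen by symbol, namely those beginning Ndufa, Ndufb, Ndufc, Ndufs or Ndufv with a number, Ndufab1, Sdha to Sdhd, Cyc1, and those beginning Uqcr, Cox with a subunit number and letter, or Atp5, with the assembly factors left out. Only array probe sets carrying 1 gene symbol counted, the brightest such probe set (by mean signal) stood for its gene, and the 81 were taken from 18193 genes with such a probe set. By complex there were 36 members in complex I, 4 in II, 9 in III, 15 in IV and 17 in V. Of these, 76 lay above the filter on low signal and were tested among 11709 genes. Cox4i1 does not match the rule and stands below with the electron carriers, while Ndufa4, Cox7a2l and Ndufa4l2 do match it, although their places in complexes I and IV have been revised since they were named. Probe sets with several symbols were left out, which removed 10 that carried the symbol of a subunit.

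The cells were splenic follicular B cells of male 129SvEv mice aged 8 weeks, sorted as B220+ AA4.1- with high CD23 and intermediate CD21. Cells labelled Zfx cko were cultured with 10 µg/mL of anti-IgM, which binds and clusters the surface receptor, for 0 h, 2 h or 12 h. Cells labelled Zfx wt had the same 3 times. Each of the 6 groups had 2 arrays, 12 in all, and the groups are named below by label and time. The Cre driver of the cko, the number of mice and the place of the deleted part in Zfx were not stated in the available labels. The design text speaks of RNA hybridized in duplicate, so each p-value reflects array-to-array spread alone, and that spread may be technical. Fewer cells of a type and less RNA per cell cannot be told apart in such data.

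In oxidative phosphorylation, complex I (NADH dehydrogenase) and complex II (succinate dehydrogenase) pass electrons to ubiquinone, complex III passes them to cytochrome c, and complex IV passes them to oxygen. Complexes I, III and IV pump protons, and complex V, the ATP synthase, uses the proton gradient to make ATP. A few subunits of complexes I, III, IV and V come from mitochondrial DNA and the rest, like all of complex II, from nuclear genes. Resting B cells are small and quiescent, and B cells activated through their receptor grow and raise their mitochondrial respiration. Nuclear respiratory genes are known targets of NRF1 and of the ETS factor GABP, and many have a YY1 site near their start.

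Promoter sequence from RefSeq (build GRCm38.p6, 250 bases before to 50 after the gene start) was found for 67 of the 81 members. Exact letters were searched on both strands. The NRF1 motif GCATGCGC stood in the windows of 9 of the 67 members (13.43%), against 3.94% of 17492 genes with a window. The GABP motif CCGGAAG stood in 17 members (25.37%), against 12.95% of all genes, and the YY1 motif AAGATGGCG in 6 members (8.96%), against 2.14%. None of the 6 YY1 matches (0 of 6) overlapped a GABP match. The ZFX motif AGGCCT stood in 5 members (7.46%), against 11.51%, and the E-box CACGTG, which MYC can bind, in 6 members (8.96%), against 8.91%. The 6 stretches of 100 bases below end 1 base before the gene start and are shown as examples of 4 of the motifs in genes described below, with the matched motif in capitals; these genes were chosen after their values were seen. In order the capitals mark a GABP match on the reverse strand, a GABP match, 2 overlapping NRF1 matches, an NRF1 match, an E-box and a ZFX match. A match is a description of letters, not of binding.
Uqcrh (chr4:116075071-116075170, minus strand): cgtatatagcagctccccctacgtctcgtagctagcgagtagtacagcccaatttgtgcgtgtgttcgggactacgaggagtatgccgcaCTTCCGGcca
Uqcr11 (chr10:80406822-80406921, minus strand): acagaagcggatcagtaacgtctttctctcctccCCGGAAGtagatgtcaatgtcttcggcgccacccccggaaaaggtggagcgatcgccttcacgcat
Atp5g2 (chr15:102671048-102671147, minus strand): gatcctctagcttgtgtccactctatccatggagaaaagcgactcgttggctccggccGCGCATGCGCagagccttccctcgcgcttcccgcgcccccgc
Sdhb (chr4:140961171-140961270, plus strand): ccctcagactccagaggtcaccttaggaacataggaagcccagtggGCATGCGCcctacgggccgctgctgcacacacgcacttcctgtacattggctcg
Atp5g1 (chr11:96075632-96075731, minus strand): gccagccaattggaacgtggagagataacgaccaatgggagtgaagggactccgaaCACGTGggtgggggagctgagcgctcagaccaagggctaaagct
Ndufv1 (chr19:4012756-4012855, minus strand): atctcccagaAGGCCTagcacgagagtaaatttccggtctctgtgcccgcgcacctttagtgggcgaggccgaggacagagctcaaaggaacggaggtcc

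By their control signals the 12 arrays formed 2 sets of 6, which bears on which groups can be set against each other. On the cko 2 h, cko 12 h and wt 2 h arrays the actin 5′ signal was 8.41 to 19.1% of the 3′ signal and the 18S ribosomal RNA signal was 1022 to 1299. The cko 0 h, wt 0 h and wt 12 h arrays had an actin ratio of 1.80 to 3.33% and an 18S signal of 6636 to 10892 (6636 to 7553 at 0 h). The brightest Zfx probe set was higher on the cko arrays, with 2189 and 2618 at cko 0 h and 983 and 1041 at wt 0 h, which goes against a plain reading of the label, and whether its probes lie in the deleted part is not known here. Of 11 B cell markers, 9 had a probe set and all 9 lay above the filter. Their mean sum was 105823 at cko 0 h, 32994 at cko 2 h and 48239 at cko 12 h, and 89688 at wt 0 h, 36517 at wt 2 h and 47447 at wt 12 h. The 4 plasma cell markers, all above the filter, summed to 4316 at cko 0 h, 4687 at cko 2 h and 2820.3 at cko 12 h, and to 5968 at wt 0 h, 5725 at wt 2 h and 2057 at wt 12 h. Per array, 7 of 8 myeloid markers summed to 7950 to 8039.6 at cko 0 h and 1823 to 2006 at cko 2 h, against 17731 to 18372 at wt 0 h and 10668 to 10835 at wt 2 h, with S100a8 the brightest and Itgam below the filter. At 12 h they summed to 1920 to 1928 on cko arrays and 6185 to 7063 on wt arrays. Sums of 7 T and NK cell markers ran from 320.9 to 1226 and of 5 erythroid markers from 204 to 1737 over the 12 arrays, with Cd4 and Hba-a1 below the filter. The immature B cell marker Cd93 (AA4.1) ran from 118 to 123 at cko 0 h and from 54.4 to 65.4 at wt 0 h.

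Most subunit genes rose late. With wild-type cells at 12 h of anti-IgM set against 0 h, a comparison within 1 array set, 61 of 76 members were higher and 5 lower at an adjusted p under 0.05 (limma, Benjamini-Hochberg over all genes). Among all 11709 genes 49.9% were called in either direction, 25.8% higher and 24.1% lower. The members' median log2 difference was 0.77, against 0.023 over all genes. In the other comparison of late with earlier cells within 1 set, cko 12 h against cko 2 h, 60 members were higher and 2 lower, while 50.9% of all genes were called (31.4% higher, 19.5% lower). There the members' median was 0.75 and that of all genes 0.11. These comparisons share no array, but the time they start from differs, so their sizes are given side by side and not set against each other. In both, 55 of the 76 members were higher (72.4%, or 90.2% of the 61 and 91.7% of the 60), as were 11.9% of all genes. Actin ratios within these pairs were not equal either, with group means of 19.0 ± 0.069% at cko 12 h and 10.7 ± 0.159% at cko 2 h (SD, n = 2), and with 2.11 and 2.27% at wt 12 h against 3.27 and 3.33% at wt 0 h, and the wt 12 h arrays had the highest 18S signal of their set. The sums of B cell, plasma cell, myeloid, T and NK cell and erythroid markers were lower at wt 12 h than at wt 0 h. Cd79a, Tnfrsf17, Cd68, Cd8a, Hbb-b2 and Hba-a1 went the other way. Between the cko groups the B cell sum was higher and the plasma cell sum lower at 12 h than at 2 h. Here Fcer2a, Cr2, Sdc1 and Tnfrsf17 went against the sum of their list. Jchain made up most of the plasma cell sum (mean 5660 of 5968 at wt 0 h). The part of these differences in the rise was not tested.

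**Figure D1:**
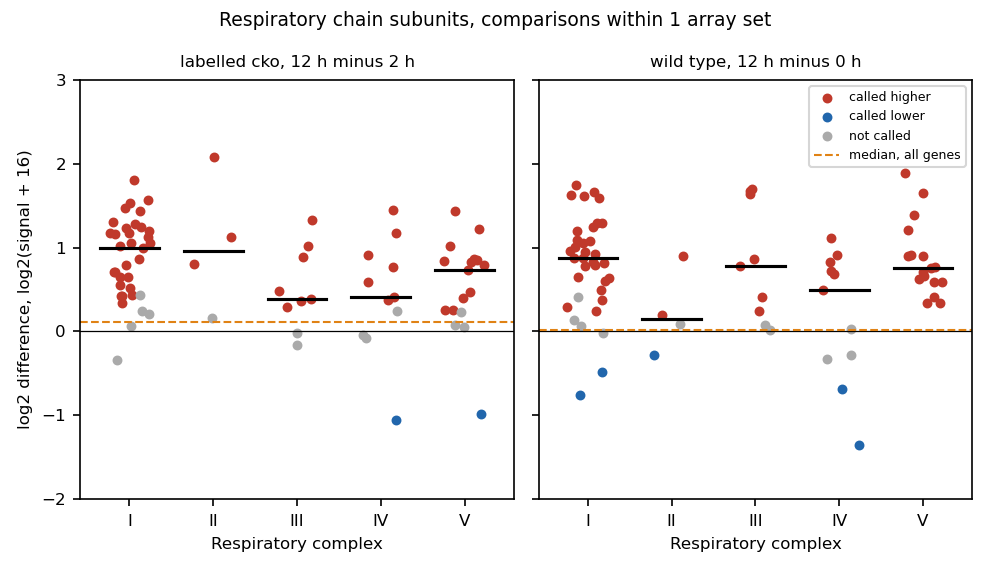
Log2 difference in log2(signal + 16) for each of the 76 tested subunits (points), by complex, for cko 12 h minus 2 h (left) and wt 12 h minus 0 h (right); black bars are medians of a complex and the dashed line the median of all genes. Most points lie above the dashed line in both panels, and in wild type all 17 complex V points are called higher.

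Complex I, which oxidises NADH, carried much of the late rise, with 29 of 35 tested subunits higher and 2 lower in wild type and 30 higher and 0 lower between cko 2 h and cko 12 h. The medians were 0.87 and 0.99. The largest rise in wild type was that of Ndufa5, an accessory subunit of the peripheral arm. Its signal was 6476 and 7363 at wt 12 h, against 1997 and 2112 at wt 0 h, a log2 difference of 1.74 ± 0.078 (± SE, adjusted p = 5.86e-10). Ndufv3, an accessory subunit of the NADH-binding module, rose most between the cko groups. It read 3991 and 4315 at cko 12 h and 1095 and 1268 at cko 2 h (1.80 ± 0.088, adjusted p = 1.81e-09). The core subunit Ndufv1, which holds the flavin that takes electrons from NADH, read 7460.5 and 7826 at wt 12 h and 5026 and 4798 at wt 0 h (0.64 ± 0.059), and 4763 and 4439 at cko 12 h and 1852 and 1899.9 at cko 2 h (1.29 ± 0.059). In each of these pairs both later arrays lay above both earlier ones. The exceptions in wild type were Ndufb1 and Ndufa6, both accessory subunits. Ndufb1 fell to 136 and 99 at wt 12 h, against 250.4 and 171 at wt 0 h (-0.75 ± 0.18, adjusted p = 0.0026), and Ndufa6 to 1450.3 and 1495, against 2201 and 1942 (-0.49 ± 0.086). The iron-sulfur core subunit Ndufs1 gave -0.02 ± 0.085 in wild type and 0.069 ± 0.085 between the cko groups and was not called in either.

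Complex II, which is also an enzyme of the citric acid cycle, did not move as a block. The catalytic flavoprotein Sdha read 2222 and 2096 at wt 12 h and 2616 and 2645 at wt 0 h and fell slightly (-0.28 ± 0.074, adjusted p = 0.00535), but its 3 tested probe sets went both ways and their mean gave 0.10. Between the cko groups it rose, with 1358 and 1483 at cko 12 h and 613 and 672 at cko 2 h (1.13 ± 0.074). The iron-sulfur subunit Sdhb had 4792 and 4865 at wt 12 h and 4176 and 4244 at wt 0 h, a small rise (0.20 ± 0.056, adjusted p = 0.00888) that quantile normalization brought to 0.012. On cko arrays Sdhb gave 6008 and 6481 at 12 h and 3486 and 3663 at 2 h (0.80 ± 0.056). The membrane anchors, which bind ubiquinone, differed from each other. Sdhc rose to 312 and 276 at wt 12 h, against 130.2 and 170.2 at wt 0 h (0.91 ± 0.14), and to 1411 and 1643 at cko 12 h, against 349 and 347 at cko 2 h (2.08 ± 0.14, the largest difference of any subunit in that comparison). Sdhd read 146 and 145 at wt 12 h and 145 and 127 at wt 0 h, and 744 and 863 at cko 12 h and 778 and 653 at cko 2 h, with no call in either comparison.

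Complex III hands electrons from ubiquinol to cytochrome c, and 7 of its 9 subunits were higher and 0 lower in each of these comparisons. Uqcr11, a small accessory subunit, rose most in both. It read 8961 and 9035 at wt 12 h and 2631 and 2899 at wt 0 h (1.70 ± 0.074, adjusted p = 4.15e-10), and 4125 and 4316 at cko 12 h and 1646 and 1705 at cko 2 h (1.32 ± 0.074, adjusted p = 5.04e-09). Cyc1, the haem-carrying subunit that reduces cytochrome c, had 10325 and 9984 at wt 12 h and 5832 and 5954 at wt 0 h (0.78 ± 0.06), and 9506 and 9141 at cko 12 h and 6645 and 6720.0 at cko 2 h (0.48 ± 0.06), with no overlap between the groups of a pair. The Rieske iron-sulfur protein Uqcrfs1 and the hinge protein Uqcrh were the 2 subunits without a call in either comparison. Uqcrfs1 read 1085 and 1173 at wt 12 h and 1128 and 1105 at wt 0 h. At cko 12 h it read 3228 and 3221, against 3666 and 3538 at cko 2 h.

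Complex IV, cytochrome c oxidase, had members called in both directions. In wild type 6 of 11 tested members were higher and 2 lower at 12 h, and between the cko groups 7 were higher and 1 lower. Cox6c, a small membrane subunit, rose most in wild type, with 4463 and 4126 at wt 12 h and 1949 and 1999 at wt 0 h (1.11 ± 0.06, adjusted p = 3.16e-09). The matrix-side subunit Cox5a read 13966 and 13329 at wt 12 h and 7555 and 6926 at wt 0 h (0.91 ± 0.055), but 7864 and 7970.1 at cko 12 h and 8407 and 8261 at cko 2 h, which was not called. Cox7c, whose other probe set lay below the filter, was read by an _s_at probe set at 109 to 353 over the 12 arrays. On it Cox7c went the other way from most members. It fell to 131 and 109 at wt 12 h, against 353 and 309.8 at wt 0 h (-1.36 ± 0.16, adjusted p = 1.01e-05), and to 121 and 116 at cko 12 h, against 294 and 235 at cko 2 h (-1.05 ± 0.16). Cox7a2l, known as a supercomplex assembly factor that joins complexes III and IV, fell to 10725 and 10888 at wt 12 h, against 17302 and 17429.8 at wt 0 h (-0.68 ± 0.064). The muscle form Cox6a2 rose between the cko groups, with 252 and 318 at cko 12 h, but its cko 2 h arrays read 50.5 and 165 and so differed widely from each other (1.44 ± 0.34, adjusted p = 0.00267).

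Complex V rose as a whole in wild type, where all 17 tested subunits were higher at 12 h than at 0 h (differences of 0.34 to 1.89, median 0.76). Between cko 2 h and cko 12 h, 13 were higher and 1 lower. Both of the catalytic head's main subunits were among the smaller rises in wild type. The beta subunit Atp5b read 1798 and 2048 at wt 12 h and 1472 and 1544 at wt 0 h (0.34 ± 0.09), and the alpha subunit Atp5a1 gave 0.41 ± 0.058, although its probe sets were called in both directions. The largest rise in each comparison was in a gene for the c subunit of the rotating membrane ring. Atp5g1 rose to 2752 and 3051 at wt 12 h, against 771 and 767 at wt 0 h (1.89 ± 0.088, adjusted p = 8.12e-10). On cko arrays it was 3762 and 4290.4 at 12 h and 1611 and 1808 at 2 h (1.23 ± 0.088). Atp5g2, which encodes the same mature protein, had the largest cko difference, with 4018 and 4409 at cko 12 h and 1433 and 1673 at cko 2 h (1.43 ± 0.075), but the mean of its probe sets gave 0.38 and no call. The one fall was that of Atp5md, a small membrane subunit, which read 728 and 745 at cko 12 h and 1613 and 1335 at cko 2 h (-0.98 ± 0.18, adjusted p = 0.000347).

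**Figure D2:**
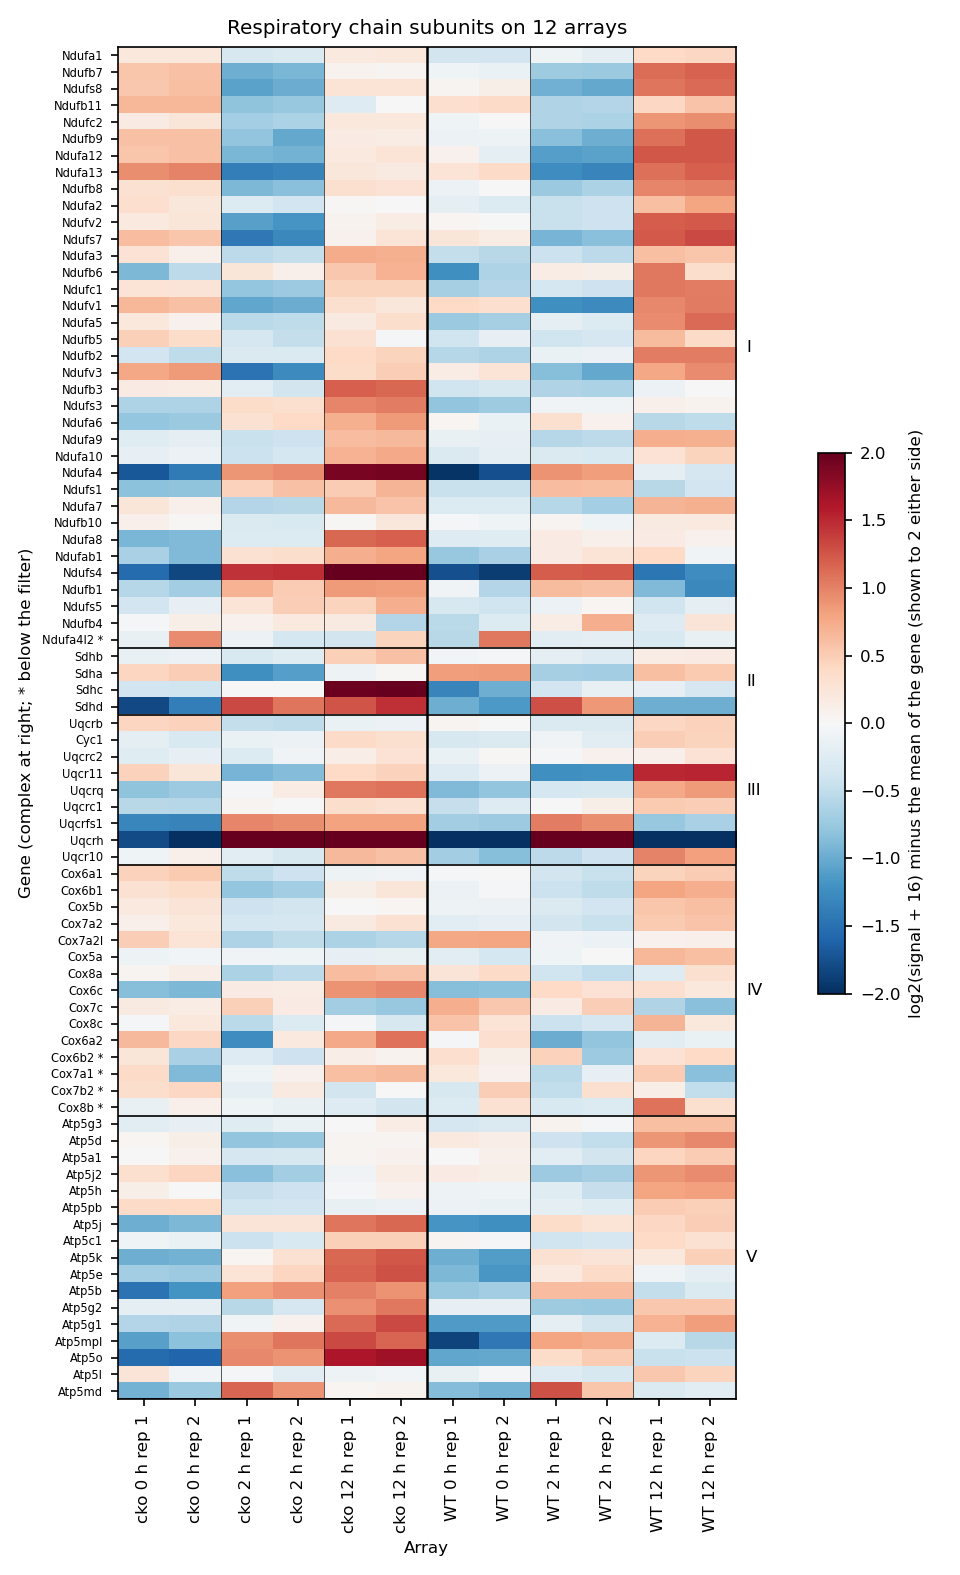
Each row is 1 of the 81 genes and each column 1 array; colour is log2(signal + 16) minus the gene's own mean, shown to 2 either side, with lines between complexes and groups and a star on the 5 genes below the filter. Wild-type 12 h columns are red for most of complexes I and V, cko 2 h columns are blue for much of complex I, and Uqcrh, Ndufs4 and Sdhd are red on the cko 2 h, cko 12 h and wt 2 h arrays alone.

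Before stimulation, more subunit transcripts were higher than lower on cko arrays against wild-type arrays, with 36 of 76 members called higher and 11 lower. Of all genes 33.4% were called at 0 h, 16.7% higher and 16.6% lower. The members' median was 0.20 (all genes 0.019), and no member differed by 2-fold or more (0 of 76). Complex I led with 21 of 35 higher and 3 lower (median 0.31). Ndufc1, a membrane-arm accessory subunit, read 4637 and 4611 at cko 0 h and 2418 and 2556 at wt 0 h, a log2 difference of 0.89 ± 0.053 (adjusted p = 1.42e-07). Among the falls, Ndufa6 was 1237 and 1265 at cko 0 h and 2201 and 1942 at wt 0 h (-0.72 ± 0.086, adjusted p = 3.7e-05). In complex III, 3 of 9 were higher and 2 lower. The small subunit Uqcr10 was higher, with 372 and 426 at cko 0 h and 239 and 214 at wt 0 h (0.78 ± 0.11), although the mean of its probe sets gave 0.28 and an adjusted p of 0.097. The Rieske protein Uqcrfs1 was lower, with 738 and 725 at cko 0 h and 1128 and 1105 at wt 0 h (-0.60 ± 0.065).

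At the same time point complex IV had 5 of 11 tested members higher and 2 lower, and complex V 6 of 17 higher and 2 lower. Cox6a1, the form of subunit VIa found in most tissues, read 26030.5 and 27140.4 at cko 0 h and 18593 and 18752 at wt 0 h (0.51 ± 0.048). Cox7c read 238 and 232 at cko 0 h and 353 and 309.8 at wt 0 h, but its call (-0.47 ± 0.16, adjusted p = 0.0431) was lost without any 1 of the 4 arrays compared (-0.56 to -0.38). In ATP synthase, the small proteolipid Atp5mpl was higher and the catalytic Atp5b lower. Atp5mpl had 745 and 899.9 at cko 0 h and 433 and 586 at wt 0 h (0.68 ± 0.13), and Atp5b 887 and 1079 at cko 0 h and 1472 and 1544 at wt 0 h (-0.62 ± 0.09). In complex II Sdhc was higher, with 264 and 262 at cko 0 h and 130.2 and 170.2 at wt 0 h (0.76 ± 0.14), and Sdha lower, with 1959 and 2046 at cko 0 h and 2616 and 2645 at wt 0 h (-0.39 ± 0.074), while the mean of Sdha's probe sets was not called (-0.15). Sdhd was 74.5 and 106 at cko 0 h and 145 and 127 at wt 0 h (-0.53 ± 0.17, adjusted p = 0.0315), a call lost without the first cko 0 h array (-0.31) or either wt 0 h array (-0.61 and -0.45). Sdhb (-0.097 ± 0.056) and Cyc1 (0.071 ± 0.06) were not called.

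The direction at rest went with the kind of probe set. Of the 49 members read by a probe set with the suffix _a_at, _s_at or _x_at, 31 were higher and 6 lower at cko 0 h, while of the 27 read by a plain _at probe set 5 were higher and 5 lower. Among genes outside the respiratory chain 25.3% were higher when read by a suffixed probe set and 13.5% when read by a plain one. The second probe set of Ndufc1 read 103 and 124 at cko 0 h and 75.1 and 94.6 at wt 0 h and was not called (0.36 ± 0.13, adjusted p = 0.0532), nor was that of Ndufa5 (-0.07 ± 0.13). Over the 78 other probe sets of tested members that passed the filter, 21 were higher and 12 lower at cko 0 h (median 0.18). For the late wild-type rise the same 78 gave 49 higher and 6 lower (median 0.68), and for cko 12 h against 2 h 51 higher and 5 lower (median 0.56). The group mean actin ratio was 1.89 ± 0.136% at cko 0 h (SD, n = 2), below the 3.27 and 3.33% of the wt 0 h arrays, and the myeloid marker sum at cko 0 h was under that at wt 0 h. S100a8, S100a9 and Lyz2 carried that lower sum. Csf1r went the other way, with means of 1591 at cko 0 h and 829 at wt 0 h, as did the dimmer Cd68, Mpo and Itgam. The part of the actin ratio and of these markers in the genotype difference was not tested.

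After 2 h of anti-IgM, 9 members were higher and 19 lower on cko arrays, against 13.4% of all genes higher and 16.4% lower (29.9% in either direction). The members' median was -0.032 and that of all genes -0.020. Leaving out an array changed these counts by over 1.5 times, to 11 lower without the first cko 2 h array and 12 without the first wt 2 h array, and to 5 higher without the second array of either group. Median scaling gave 12 lower, and eBayes without trend 5 higher and 9 lower. The iron-sulfur subunit Ndufv2 of complex I had the largest difference. It read 2397 and 2244 at cko 2 h and 3733 and 3845 at wt 2 h (-0.70 ± 0.054, adjusted p = 9.82e-07). Ndufs3, a core subunit on the path to ubiquinone, was higher, with 2928 and 2828 at cko 2 h and 2142 and 2139 at wt 2 h (0.42 ± 0.058). In complex II Sdha alone was called, with 613 and 672 at cko 2 h and 915 and 891 at wt 2 h (-0.48 ± 0.074). Cox7a2l was lower, with 6598 and 7135 at cko 2 h and 9669 and 9321 at wt 2 h (-0.47 ± 0.064). Atp5o, the stalk subunit that confers oligomycin sensitivity, was higher, with 2471 and 2358 at cko 2 h and 1620.5 and 1791 at wt 2 h (0.50 ± 0.073), and the delta subunit Atp5d lower, with 7366 and 7462 at cko 2 h and 9518 and 9048 at wt 2 h (-0.32 ± 0.047). In complex III the small subunits Uqcrq (0.39 ± 0.069) and Uqcrb (-0.20 ± 0.039) were called, but neither call was kept by the mean of the gene's probe sets (0.026 and -0.10), and Uqcrq turned to -0.62 without _s_at and _x_at probe sets.

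Of the 36 members higher at cko 0 h, 4 were also higher at 2 h, 11 were lower and 21 not called. Of the 29 not called at 0 h, 3 were higher and 5 lower at 2 h. No share of all genes is given for these joint counts, so whether other genes did the same was not tested. The difference between the genotypes' 2 h responses, in which each genotype crosses the array sets once, was tested directly. It was negative for 32 members and positive for 6, against 12.4% and 8.98% of all genes (21.4% in either direction), while eBayes without trend gave 20 negative and the other scalings and probe set choices 22 to 24. The mean actin ratio was 10.7% at cko 2 h and 1.89% at cko 0 h, and 8.46% at wt 2 h against 3.27 and 3.33% on the wt 0 h arrays, so it differed more between the cko groups, and its part in the result was not tested. For Ndufc1 the cko arrays read 2247 and 2321 at 2 h and 4637 and 4611 at 0 h, and the wt arrays 2988 and 2870.2 at 2 h and 2418 and 2556 at 0 h. The cko response minus the wt response was -1.25 ± 0.075 on the log2 scale (adjusted p = 3.86e-07). The membrane-arm subunit Ndufb7 (-0.90 ± 0.065) and Ndufa1, an X-linked accessory subunit (-0.76 ± 0.062), were likewise negative, and Ndufa1 read 9438 and 9631 at cko 2 h and 13700.5 and 13679 at cko 0 h, against 11108 and 10402 at wt 2 h and 9127 and 9025 at wt 0 h. Atp5o (1.03 ± 0.10), Atp5b (0.87 ± 0.13) and Ndufa6 (0.86 ± 0.12) were positive. Of the 49 members with a suffixed probe set 30 were negative, and of the 27 with a plain one 2 were. Among other genes 20.7% were negative on suffixed probe sets and 9.22% on plain ones.

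**Figure D3:**
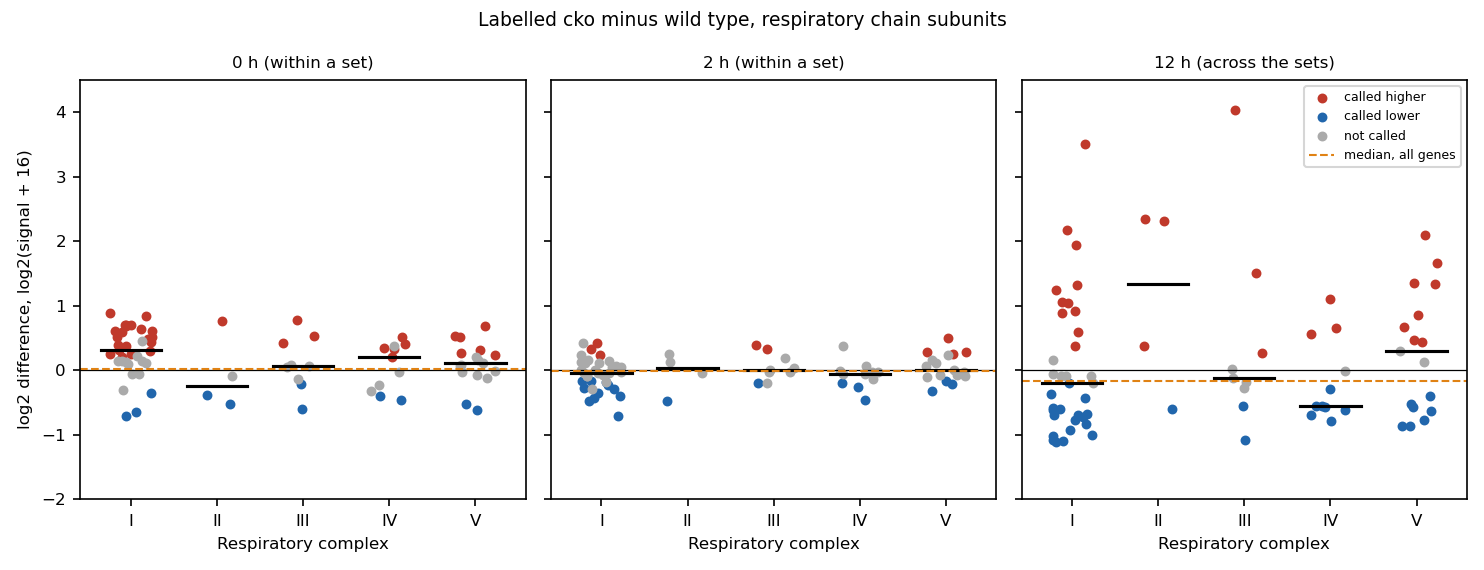
Log2 difference in log2(signal + 16), cko minus wt, for the 76 tested subunits by complex at 0 h, 2 h and 12 h; black bars are medians of a complex and the dashed line the median of all genes. At 0 h most complex I points lie above the line, at 2 h the points lie close to it, and at 12 h, where the comparison crosses the array sets, they spread from -1.11 to 4.04.

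The remaining comparisons cross the array sets, and in them the subunit genes disagreed with themselves. Of 46 members with several tested probe sets, 20 to 23 had probe sets called in opposite directions in each of the 5 pairwise comparisons across the sets, against 2 to 5 in each of the 4 within a set (4.35 to 10.9%). Within a set these were Ndufc2, Ndufv2 and Uqcrb between genotypes at 0 h, Atp5pb and Uqcrq between them at 2 h, Atp5a1, Atp5pb, Ndufab1, Ndufb2 and Ndufs4 between cko 12 h and cko 2 h, and Atp5a1, Cox5b, Ndufab1 and Sdha between wt 12 h and wt 0 h. Among 5309 other genes the shares were 15.9 to 21.45% across and 1.21 to 7.36% within. Where both probe sets were designed on the same sequence record (23 genes), 5 to 11 were opposite across the sets and 0 to 1 within. Ndufa5 is an example. Its brighter probe set fell to 2293 and 2333 at cko 2 h, against 3872 and 3533 at cko 0 h, while its other probe set rose to 681 and 773 at cko 2 h, against 163 and 166 at cko 0 h. At 12 h the brighter one was lower in cko, with 3788 and 4273 at cko 12 h and 6476 and 7363 at wt 12 h, and the other higher, with 995 and 875 at cko 12 h and 356 and 300.1 at wt 12 h. Cox6a1 did the same, its brighter probe set with a log2 difference of -0.56 ± 0.048 and its other with 1.10 ± 0.076 between the genotypes at 12 h. Both genes' probe sets rose together in wild type at 12 h (1.74 ± 0.079 and 0.85 ± 0.13 for Ndufa5, 0.49 ± 0.048 and 0.64 ± 0.076 for Cox6a1).

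**Figure D4:**
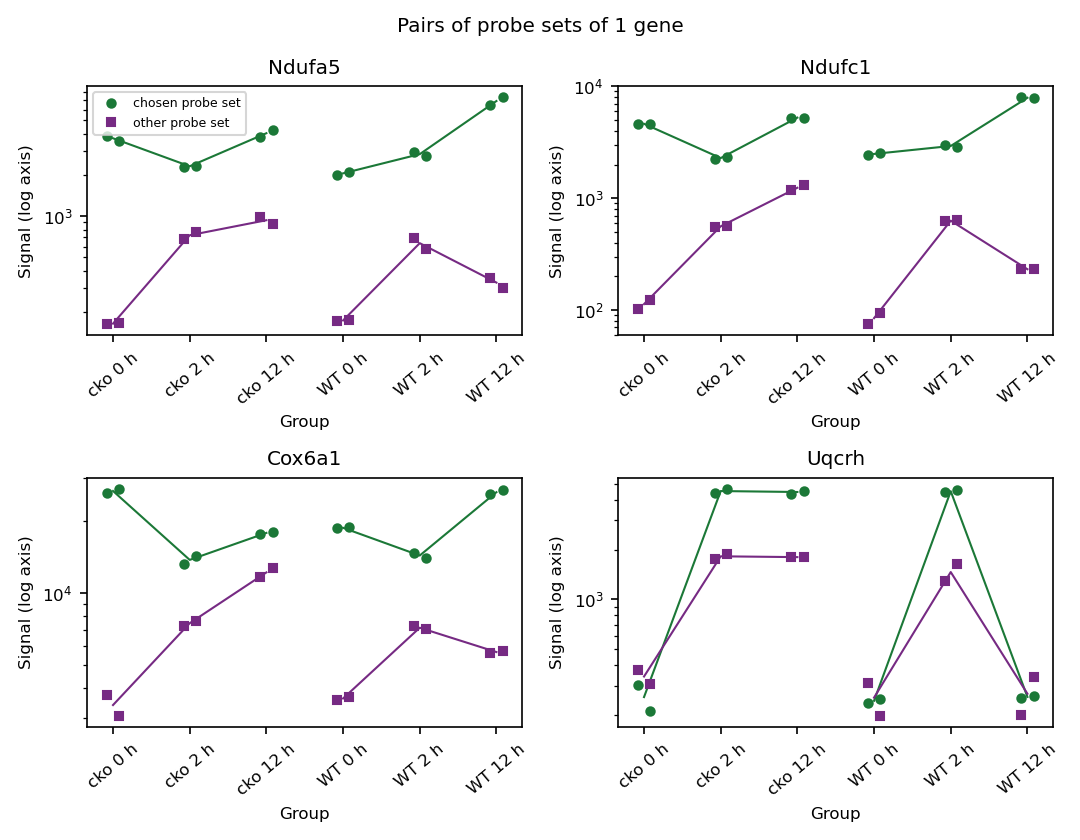
Signal (log axis) on each array for the chosen probe set (circles) and another probe set (squares) of Ndufa5, Ndufc1, Cox6a1 and Uqcrh; lines join group means within a label. The squares of Ndufa5, Ndufc1 and Cox6a1 rise at 2 h where the circles of the cko arrays fall, and for Uqcrh both probe sets are high on the cko 2 h, cko 12 h and wt 2 h arrays and low on the rest.

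**Figure D5:**
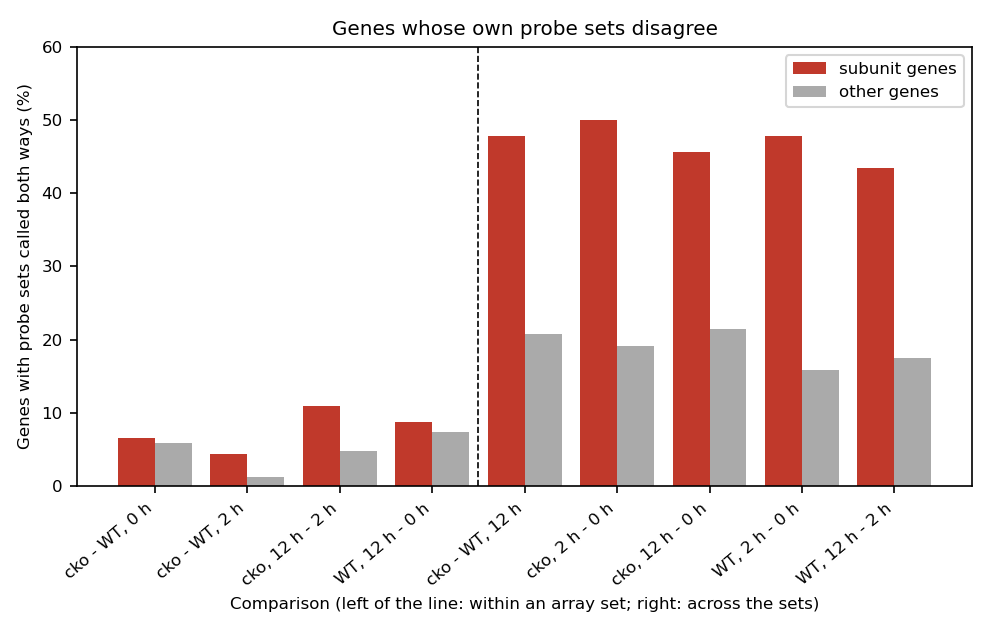
Percent of genes with several tested probe sets whose probe sets were called both higher and lower, for 46 subunit genes (red) and 5309 other genes (grey), by comparison. Bars left of the dashed line (comparisons within an array set) stay at or under 10.9% and subunit bars right of it at 43.5% or more.

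Uqcrh had the largest difference of any member in each of these 5 comparisons and none within a set. It read 301 and 210.0 at cko 0 h, 4379 and 4663 at cko 2 h and 4367 and 4556 at cko 12 h, and 235 and 250.2 at wt 0 h, 4461 and 4562 at wt 2 h and 252 and 259.8 at wt 12 h. The high and the low arrays are exactly those of the higher and the lower actin ratio. With genotype, time and array set as terms of 1 fit its differences were 0.092 at 2 h and 0.062 at 12 h and were not called. That fit has 1 effect of each time for both genotypes. It takes the set effect from the genotype difference at 12 h, where genotype and set cannot be told apart, so it cannot decide between them. Ndufs4, an accessory subunit whose loss causes Leigh-like disease in mice, followed almost the same order, with 162 and 130.1 at cko 0 h, 1390.1 and 1423 at cko 2 h and 2276 and 2362 at cko 12 h. On wt arrays it had 137 and 124 at 0 h, 1188 and 1200.0 at 2 h and 175 and 204 at 12 h. Its 4 probe sets were called both ways in each of the 5 comparisons.

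With that limit, the 2 h responses called 26 members higher and 43 lower in cko (65.2% of all genes called, 24.8% higher and 40.4% lower) and 33 higher and 34 lower in wild type (61.9%, 24.4% and 37.4%). The members' medians were -0.27 and -0.072 and those of all genes -0.32 and -0.24, and scaling each array to its median moved the all-gene values to -0.032 and -0.047 and the members' calls to 31 higher and 32 lower in cko and 37 and 25 in wild type. With each gene's probe sets averaged the calls were 34 higher and 26 lower in cko and 40 and 17 in wild type. With the array set as a term they were 17 and 17, which is 1 result that the fit shares between the genotypes. Of members with a suffixed probe set 11 were higher and 35 lower in cko, and of those with a plain one 15 and 8. Of the members, 25 were called higher and 34 lower in both. No share of all genes is given for that count, and both comparisons cross the array sets in the same direction. In complex I Ndufs4 rose most in both, though the array set as a term turned it to -0.23, while the largest fall was that of Ndufa13 in cko and of Ndufv1 in wild type. Ndufa13, also called GRIM-19, read 2489 and 2558 at cko 2 h and 12344 and 12934 at cko 0 h (-2.32 ± 0.057). Ndufv1 read 1613 and 1567 at wt 2 h and 5026 and 4798 at wt 0 h (-1.62 ± 0.059). In the other pumps Uqcrh and Cox6c rose most in both and Uqcr11 fell most (turned to 0.37 by the array set term). The other probe set of Cox6c was called lower in cko (-0.95). The largest complex IV falls were Cox6b1 (-1.07 ± 0.054) in cko and Cox6a2 (-1.04 ± 0.34, lost without the second wt 0 h or the first wt 2 h array) in wild type. In ATP synthase Atp5o (2.50 ± 0.073) in cko and Atp5mpl (2.40 ± 0.13) in wild type rose most, and the array set term turned Atp5o to -0.13. Atp5j2, the f subunit, fell most in both (-1.14 ± 0.071 and -0.84 ± 0.071), but the fall turned to a rise of 0.64 and 1.09 without _s_at and _x_at probe sets. Sdha fell (-1.62 ± 0.074 in cko, -1.53 ± 0.074 in wild type), Sdhb fell slightly (-0.14 ± 0.056 and -0.19 ± 0.056, turned by median scaling), Sdhc rose (0.39 ± 0.14 and 0.89 ± 0.14) and Sdhd rose (2.79 ± 0.17 and 2.14 ± 0.17). The array set term turned Sdhc to -1.17 and Sdhd to -0.077, values that its fit shares between the genotypes, and the mean of its probe sets turned Sdhc in cko to -0.0088. Cyc1 was not called in cko (0.11 ± 0.06) and was called in wild type (0.15 ± 0.06), where the call was lost without either wt 0 h array or the first wt 2 h array, and the difference between these responses was not called.

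At cko 12 h against cko 0 h, 40 members were higher and 20 lower (61% of all genes called, 26.9% higher and 34.1% lower; medians 0.40 and -0.19), and median scaling gave 52 and 9, the mean of probe sets 56 and 7. The largest rises by complex were Ndufs4 (3.85 ± 0.11), Uqcrh (4.06 ± 0.12), Cox6c (1.80 ± 0.06) and Atp5o (3.22 ± 0.073), and the largest falls Ndufb11 (-0.79 ± 0.07), Uqcrb (-0.57 ± 0.039), Cox7a2l (-0.98 ± 0.064) and Atp5pb (-0.52 ± 0.046). Among these rises, Ndufs4 and Cox6c also had probe sets called lower, down to -1.72 and -0.47. For Uqcrb and Atp5pb the mean of the probe sets gave rises of 0.57 and 0.16 and the array set term 0.25 and 0.45, and that term turned Ndufb11 to 0.011. All 20 members that fell were read by a suffixed probe set, and of the 27 with a plain one 22 rose and 0 fell. Among other genes 25.8% rose and 31.9% fell on plain probe sets, and 29.4% and 40.5% on suffixed ones. Cyc1 rose (0.59 ± 0.06), as did Sdhb (0.66 ± 0.056), Sdhc (2.46 ± 0.14) and Sdhd (2.96 ± 0.17), while Sdha fell on its chosen probe set (-0.49 ± 0.074) and rose on the mean of its probe sets (0.49). In wild type at 12 h against 2 h, 51 were higher and 14 lower (59.4%, 36.6% and 22.8% of all genes; medians 0.72 and 0.26), led by Uqcr11 (2.74 ± 0.074), Ndufa13 (2.43 ± 0.057), Atp5j2 (1.60 ± 0.071) and Cox6b1 (1.22 ± 0.054), with Uqcrh (-4.06 ± 0.12), Ndufs4 (-2.56 ± 0.11), Atp5mpl (-1.19 ± 0.13) and Cox7c (-1.05 ± 0.16) as the largest falls. With the array set as a term Ndufs4 turned to 0.74 and Atp5mpl to 0.12. The Atp5j2 rise became -0.32 without _s_at and _x_at probe sets.

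Between the genotypes at 12 h, 28 members were higher and 35 lower on cko arrays (53.2% of all genes called, 22.3% higher and 30.9% lower; medians -0.15 and -0.17). With each gene's probe sets averaged 38 were higher and 23 lower, and the members' median was 0.23. The kind of probe set went with the direction here too, since 18 of 27 members with a plain _at probe set were higher and 4 lower, and 10 of 49 with another suffix higher and 31 lower. Among other genes 22.4% were higher and 27.0% lower on plain probe sets, and 21.7% and 41.8% on suffixed ones. Called values ran from Ndufv2, with 5352 and 5696 at cko 12 h and 11903 and 11969 at wt 12 h (-1.11 ± 0.054), to Uqcrh (4.04 ± 0.12). By complex the largest rises beside Uqcrh were Ndufs4 (3.51 ± 0.11), Cox6a2 (1.10 ± 0.34, lost without the second cko 12 h or the first wt 12 h array) and Atp5o (2.10 ± 0.073), and the largest falls beside Ndufv2 were Uqcr11 (-1.09 ± 0.074), Cox5a (-0.78 ± 0.055) and Atp5j2 (-0.87 ± 0.071). Sdhb (0.37 ± 0.056), Sdhc (2.32 ± 0.14) and Sdhd (2.34 ± 0.17) were higher and Sdha lower (-0.60 ± 0.074), and Cyc1 was not called (-0.12 ± 0.06). Sdha and Atp5j2 turned to 0.24 and 0.60 with the mean of their probe sets. Ndufv2 and Cox5a each also had a probe set called higher (0.46 and 0.65), and Ndufs4 had probe sets called lower, down to -1.17. The difference between the genotypes' 12 h responses was positive for 26 members and negative for 36 (44.9% of all genes called, 19.6% positive and 25.3% negative). Genotype and array set cannot be told apart at 12 h.

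Several subunits are encoded by more than 1 gene, with forms known from most tissues and forms known from muscle or testis. Cox6a1 ran from 13222 to 27140.4 over the 12 arrays and the muscle form Cox6a2 from 50.5 to 318. Cox6b1 ran from 10252 to 30272, while the testis form Cox6b2, below the filter, ran from 5.36 to 33. Cox7a2 ran from 9233 to 18618 and Cox7a2l from 6543 to 17429.8, and the muscle form Cox7a1 from 2.25 to 37.2, below the filter. Cox8a ran from 2424 to 5792, Cox8c from 115 to 291 and the muscle form Cox8b, below the filter, from 1.66 to 32.4. The c-ring genes Atp5g1, Atp5g2 and Atp5g3 ran from 767 to 4290.4, from 1261 to 4409 and from 11450.1 to 21903. Ndufa4 ran from 401 to 6121, and Ndufa4l2, known as a hypoxia-induced gene, from 5.73 to 50.1, below the filter like Cox7b2 (0.665 to 16.8). Signals of different probe sets depend on their probes, so these ranges are given without an order between genes.

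Other genes of the pathway were followed in lists, to be read against the shares of all genes called, which were 25.8% higher and 24.1% lower at wt 12 h against 0 h, 31.4% and 19.5% at cko 12 h against 2 h, 16.7% and 16.6% between genotypes at 0 h, and 13.4% and 16.4% between them at 2 h. Of 42 tested assembly factors, 23 were higher and 1 lower at wt 12 h against 0 h, led by Ndufaf4, a complex I assembly factor (1.91 ± 0.13), with Atpaf1, which assembles the ATP synthase head, as the one fall (-0.78 ± 0.13). Between cko 2 h and cko 12 h, 25 were higher and 5 lower, and at cko 0 h against wt 0 h 17 were higher and 3 lower. Their median differences were 0.38, 0.56 and 0.32, against 0.023, 0.11 and 0.019 over all genes. Of 20 regulators of mitochondrial biogenesis, 6 rose and 5 fell by wt 12 h, 6 rose and 9 fell between cko 2 h and 12 h, and 5 were higher and 2 lower at cko 0 h, with medians of 0.12, -0.23 and 0.19. At wt 12 h their shares lay near those of all genes. The mitochondrial RNA-binding gene Slirp rose in wild type (1.68 ± 0.081), and Myc fell between cko 2 h and 12 h (-2.52 ± 0.12). Nrf1, the factor behind the NRF1 motif, was lower on cko arrays, with 625 and 634 at cko 2 h and 1459 and 1721 at wt 2 h (-1.31 ± 0.092) and -0.48 ± 0.092 at 0 h. Of 19 pyruvate and citric acid cycle enzymes, 13 were higher and 3 lower at wt 12 h, with Idh3a (1.76 ± 0.13) and Ogdh (-1.09 ± 0.12) at the ends, and 5 were higher and 8 lower at cko 0 h (medians 0.37 and -0.05). Between cko 2 h and 12 h, 9 of these enzymes were higher and 6 lower (median 0.23). Of 18 electron and phosphate carriers, 9 were higher and 1 lower at wt 12 h, 10 and 2 between cko 2 h and 12 h, and 7 and 4 at cko 0 h (medians 0.42, 0.38 and 0.12). Among them the ADP/ATP carrier Slc25a4 was lower on cko arrays at 0 h (-0.62 ± 0.093) and at 2 h (-0.77 ± 0.093), and Cox4i1, a regulatory subunit of complex IV, rose in wild type at 12 h (0.58 ± 0.045). Slc25a4 was the only carrier called lower between genotypes at 2 h, where 5 carriers were higher. In that comparison 14 assembly factors were higher and 0 lower, 3 and 3 regulators, and 3 and 2 citric acid cycle and pyruvate enzymes. The 13 mitochondrially encoded subunits were not analysed here.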

How the data were processed

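RNA of 12 samples was measured on Affymetrix mouse arrays. The protocols in the labels describe 2 rounds of amplification from 100 ng of total RNA. The deposited intensities are probe-set signals, with GCOS 1.4 named in the submitters' processing notes, and the 2% trimmed mean of every array is 250, the scaling the authors' values carry. The place of probes within genes was not given in the sources used here. Array number limits the precision.

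From these signals, log2(signal + 16) was computed, so folds of dim genes are understated. Of 45101 probe sets, 34945 carried 1 gene symbol in GEO's platform annotation, 932 several and 9160 none. Those with a mean above the 40th percentile (5.24) were kept, and each gene was read by its brightest probe set. limma 3.58.1 in R 4.3.3 fitted the 6 group means over all 12 arrays (eBayes with trend), with Benjamini-Hochberg adjustment over 11709 genes and calls under 0.05, and was tested on simulated data. Replicate numbers did not pair the arrays, since 0 of 15 pairs of groups had a correlation of deviations over 0.1 (-0.022 to 0.018). Named genes were, by complex and comparison, the largest called difference each way among members whose groups do not overlap (for differences of responses, the 3 with the smallest p each way), with Sdha to Sdhd, Cyc1 and Uqcrh always given; others named were chosen after their values were seen. The members and lists were chosen with earlier results of these data known. Alternatives covered scaling, pseudocount, filter, probe set choice, variance model, arrays fitted, replicate block, each array left out and the actin-ratio set.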

Additional observations from a re-analysis of the deposited data

Results flagged for a closer look

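For many members the response to anti-IgM was called different between the labels by a direct test of the difference (limma interaction term). At 2 h, 6 members had a higher and 32 a lower response in cko, against 8.98% and 12.4% of all genes. Of these 32, 30 were read by a suffixed probe set. Among other genes 20.7% had a lower response in cko on suffixed probe sets and 9.22% on plain ones. The members with the smallest p in the positive direction were, by log2 difference, Atp5o (1.03), Atp5b (0.87) and Ndufa6 (0.86), and in the negative direction Ndufc1 (-1.25), Ndufb7 (-0.90) and Ndufa1 (-0.76). At 12 h, 26 members had a higher and 36 a lower response in cko, against 19.6% and 25.3% of all genes. There the smallest p-values belonged to Uqcrh (3.99), Atp5o (2.63) and Uqcrfs1 (2.10) in the positive direction and to Ndufb7 (-1.76), Ndufa13 (-1.57) and Ndufc1 (-1.48) in the negative one. The 12 h difference crosses the array sets, and genotype and set cannot be told apart in it. The mean of the probe sets of Ndufc1 turned its value to 0.25.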

How the results depend on the processing

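When any 1 array was left out, 58 to 61 of 76 members were higher at wt 12 h against 0 h, and 59 to 61 at cko 12 h against 2 h. Of the 262 counts of called members under alternatives, 18 moved by over 1.5 times, and of 264 with an array left out 4 did. Quantile normalization gave 13 lower members at cko 12 h against 0 h and turned Cyc1 between genotypes at 12 h (0.18). Median scaling gave 9 lower at cko 12 h against 0 h and 12 lower between genotypes at 2 h, and turned Sdhb at 2 h (0.15 in cko, 0.0029 in wild type). When all probe sets of a gene were averaged, members lower were 23 between genotypes at 12 h, 26 at cko 2 h, 7 at cko 12 h against 0 h, 4 at cko 12 h against 2 h, 17 at wt 2 h and 22 for the 12 h response difference. That setting turned Sdha (0.24) and Atp5j2 (0.60) between genotypes at 12 h, Sdhc at cko 2 h (-0.0088), Sdha (0.49), Uqcrb (0.57) and Atp5pb (0.16) at cko 12 h against 0 h, Atp5j2 at wt 2 h (0.64), Sdha at wt 12 h (0.10, against 0 h) and Ndufc1 in the 12 h response difference (0.25). Without _s_at and _x_at probe sets the turned values were Uqcrq between genotypes at 2 h (-0.62), Sdha (0.20) and Atp5j2 (1.51) between them at 12 h, Sdha (0.012) and Atp5j2 (0.64) at cko 2 h, Sdha (0.60) and Atp5pb (0.85) at cko 12 h against 0 h, Sdha (0.0069) and Atp5j2 (1.09) at wt 2 h, Sdha at wt 12 h against 0 h (0.028) and Atp5j2 at wt 12 h against 2 h (-0.32). eBayes without trend gave 5 higher and 9 lower between genotypes at 2 h and 20 lower for the 2 h response difference. With the actin-ratio set as a term, the fit has 1 effect of each time for both genotypes. It gave 17 members higher and 17 lower at 2 h, 4 lower at cko 12 h against 0 h and 2 lower at wt 12 h against 2 h. Its shared 2 h values turned Sdhc (-1.17), Sdhd (-0.077), Ndufs4 (-0.23) and Uqcr11 (0.37) against both genotypes' own differences, and Atp5o (-0.13) against that of cko. It also turned Ndufb11 (0.011), Uqcrb (0.25) and Atp5pb (0.45) at cko 12 h against 0 h, and Ndufs4 (0.74) and Atp5mpl (0.12) at wt 12 h against 2 h. Leaving out an array gave 5 to 9 higher and 11 to 20 lower between genotypes at 2 h. With the replicate block, 21 members were lower between genotypes at 2 h and 31 for the 2 h response difference, and no count moved by over 1.5 times. Fits on 1 array set alone, added after seeing the data, gave 36 higher and 8 lower at cko 0 h against wt 0 h and 60 and 5 at wt 12 h against 0 h. The cause of these changes was not tested.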
